A study of Mus musculus with 6 samples.

Results

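Windows of the mouse genome with the highest CpG methylation were studied in embryonic stem cells sorted into G1 and G2/M. They were chosen as the 100-CpG windows on chromosomes 1 to 19 whose mean methylation over all 6 libraries was 85% or more and whose length was above 1500 bp. Of the 359192 windows with a value in every library, 1005 met this rule, which is 0.297% of the 338044 autosomal windows longer than 1500 bp. These 338044 windows serve as the background windows, and the 12539 of them with a mean from 80% to under 85% serve as the next lower band. The cells were E14TG2a, an established mouse embryonic stem cell line of strain 129/Ola with no genetic alteration named in the labels, grown in serum with LIF and used at passages 5 to 28. All libraries came from cells that were EdU labelled, fixed in ethanol and sorted by EdU and propidium iodide into G1, before replication, or G2/M, after it, with 3 biological replicates of each phase. EM-seq protects modified cytosines with enzymes and deaminates the unmodified ones, so that 5-methylcytosine and 5-hydroxymethylcytosine are read together. The use of a single cell line is a limit of the model.

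Methylation of CpG dinucleotides is written by DNMT3 enzymes and copied onto new DNA strands by DNMT1 with its partner UHRF1. In mammalian genomes most CpGs outside CpG islands are methylated, the bodies of transcribed genes carry methylation, and methylation helps to silence transposable elements. CpG-rich promoters of active genes are usually free of it. Embryonic stem cells in serum keep a methylated genome while also expressing TET enzymes, which oxidise 5-methylcytosine.

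What such a window looks like is shown by 300-base stretches of 3 of them, read from the RefSeq genome of build GRCm38 on the + strand, with each CpG in capitals. Each stretch is the one with the most CpGs in its window that holds no soft-masked repeat base and no untranslated region. The Ttn stretch, chr2:76746853-76747152, is coding sequence throughout, with 8 CpGs against 6.5 per 300 bases over its window. Ttn encodes titin, the giant spring protein of the sarcomere. The Arl15 stretch, chr13:113843829-113844128, is intronic in a gene for a small ARF-like GTPase and holds 7 CpGs against 4.1 per 300 bases over its window. The Qrsl1 stretch, chr10:43882205-43882504, has 54 coding bases of a subunit of the mitochondrial glutamyl-tRNA amidotransferase and holds 10 CpGs against 4.3 per 300 bases over its window. They are shown because they lie in highly methylated windows and hold no base marked as repeat. Methylation was measured per window, so the level of the stretches themselves is unknown.
Ttn: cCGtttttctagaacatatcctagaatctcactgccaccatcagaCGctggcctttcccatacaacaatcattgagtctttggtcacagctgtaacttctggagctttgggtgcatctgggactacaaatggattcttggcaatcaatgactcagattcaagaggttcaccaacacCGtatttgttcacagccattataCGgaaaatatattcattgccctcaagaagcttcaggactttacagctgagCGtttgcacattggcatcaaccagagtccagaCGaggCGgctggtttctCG
Arl15: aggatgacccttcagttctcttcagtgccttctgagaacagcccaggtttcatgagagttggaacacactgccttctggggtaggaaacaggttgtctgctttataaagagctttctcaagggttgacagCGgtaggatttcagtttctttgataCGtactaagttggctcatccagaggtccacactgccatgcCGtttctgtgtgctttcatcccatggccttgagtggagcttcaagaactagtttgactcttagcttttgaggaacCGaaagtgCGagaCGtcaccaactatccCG
Qrsl1: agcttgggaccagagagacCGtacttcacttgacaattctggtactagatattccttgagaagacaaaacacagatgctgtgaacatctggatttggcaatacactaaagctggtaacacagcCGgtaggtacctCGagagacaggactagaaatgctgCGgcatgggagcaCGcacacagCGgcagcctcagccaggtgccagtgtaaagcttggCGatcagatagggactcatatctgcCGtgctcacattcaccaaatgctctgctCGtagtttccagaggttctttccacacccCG

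In the Ttn window around that stretch, chr2:76745822-76748136, methylation was 85.3%, 94.1% and 95.7% in the G1 libraries against 89.3%, 86% and 89.4% in the G2/M libraries, with replicates 1, 2 and 3 in this order here and throughout. The Arl15 window, chr13:113840892-113844657, had 94.2%, 87.4% and 92.8% in the G1 libraries against 97.1%, 91.0% and 93.3% in the G2/M libraries. For the Qrsl1 window, chr10:43879735-43883186, the values were 94.2%, 80.7% and 94.8% in the G1 libraries against 95.2%, 91.5% and 94.2% in the G2/M libraries. In each of these windows the libraries of both phases overlapped, and G1 replicate 2 of Qrsl1 was the single value under 85%.

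The level of the windows was set by the rule and is given as a description. Their means over the 6 libraries ranged from 85% to 95.1%, with a median of 86.1% and a 75th percentile of 87.2%, and 460 of 1005 lay under 86%. The background windows had a median of 68.35%. Only 30 windows reached 90%, so most of the set sat close to its threshold. Just inside it was a window in Hivep2, which encodes a zinc-finger transcription factor, at 85.0051%, and just outside was a window in Runx1, which encodes a blood transcription factor, at 84.9991%.

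Averaged over the 1005 windows, methylation was 87.5%, 83.7% and 90.2% in the G1 libraries against 85.6%, 82.8% and 89.4% in the G2/M libraries. Over the background windows the means were 64.1%, 61.7% and 70.3% in the G1 libraries against 62.8%, 61.1% and 69.6% in the G2/M libraries. Replicate 2 was the lowest and replicate 3 the highest in both phases and in both sets. The highest library of a window was one of replicate 3 in 624 of the 1005 windows, and the lowest was one of replicate 2 in 631. Only 21 windows were at 85% or more in every library, 313 were at 80% or more in every library, and 41 had a library under 70%. In 33 windows at least 1 library was at 100%. The range over the 6 libraries of a single window had a median of 15.9 percentage points, from 3.36 to 45.2, against 18.7 in the background windows. The number of reads behind each percentage is unknown, and its part in these ranges was not tested.

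Since a high mean can arise by choosing high values, windows were also chosen by the same rule from 5 libraries and measured in the library left out. Between 756 and 1890 windows were chosen in this way. Their level in the library left out was 82.5%, 77.8% and 87.2% for G1 replicates 1, 2 and 3, and 81.2%, 77.5% and 86.4% for the G2/M replicates. These levels were 16.1 to 18.4 percentage points above the background windows of the same library. Their mean was 82.1% ± 4.11 (SD over 6 libraries), compared with 86.5% to 86.7% in the libraries that chose them. From 16.0% to 68.3% of the chosen windows were at 85% or more in the library left out, against 0.756% to 10.1% of background windows. High methylation of the chosen windows was present in every library that had no part in the choice. The excess over the background was smaller there than in the choosing libraries in all 6 cases, at 74.3% to 86.6% of it, and lowest for the replicate 3 libraries.

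**Figure D1:**
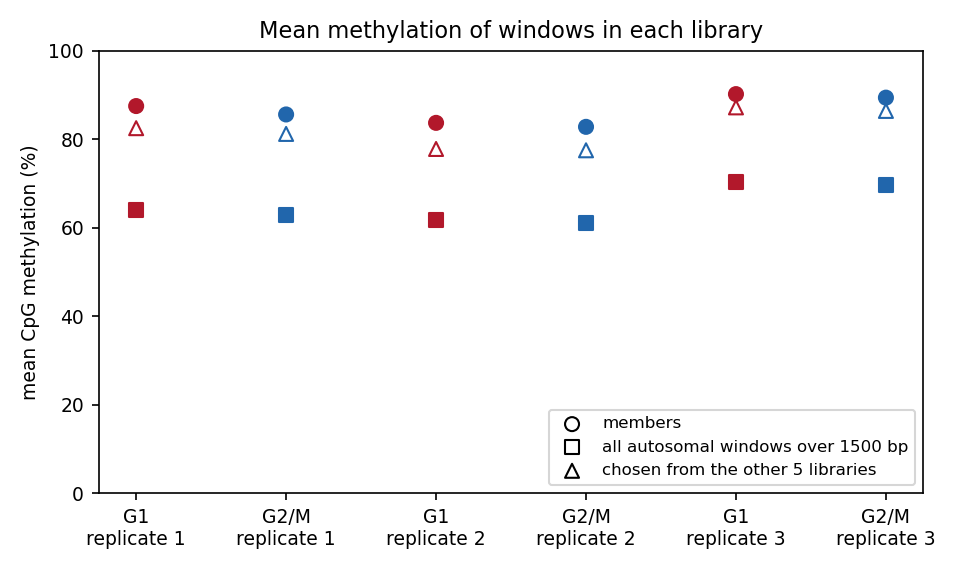
Mean CpG methylation (%, vertical axis) in each of the 6 libraries (horizontal axis, G1 in red and G2/M in blue) of the 1005 highly methylated windows (circles, members), of windows chosen from the other 5 libraries only (triangles) and of all autosomal windows over 1500 bp (squares). The circles lie between 82.8% and 90.2% and the squares between 61.1% and 70.3%, and the triangles lie 16.1 to 18.4 percentage points above the squares.

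The comparison of G1 with G2/M asks whether methylation differs between cells before replication and cells that have finished it. The rule used the mean of both phases and not their difference. Over the 1005 windows the group means were 87.1% ± 3.26 in G1 and 85.9% ± 3.34 in G2/M (SD, n = 3 libraries each), and they lay 1.21 percentage points apart, less than the SD of either phase. Within matched replicates G1 exceeded G2/M by 1.85, 0.971 and 0.808 percentage points, a mean of 1.21 ± 0.563 (SD, 3 pairs). The background windows had matched differences of 1.27, 0.620 and 0.687 percentage points, and the next lower band had 1.41, 0.785 and 0.435. G1 was the higher phase in 3 of 3 pairs in each of these sets. The sign rested on the matching, because the difference between group means became -0.33 percentage points when G1 replicate 3 was left out and -0.38 when G2/M replicate 2 was. With each library centred on its median over all autosomal windows, the matched differences of the highly methylated windows were 0.430, 0.149 and -0.0540 percentage points, with a mean of 0.175.

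When each pair was measured on windows chosen from the other 4 libraries, the matched differences were 0.877, 0.139 and 0.776 percentage points, with a mean of 0.597. Over the background windows the matched differences were larger in pairs 1 and 2 and smaller in pair 3. The excess of the highly methylated windows over the background in the matched difference was thus seen with the libraries that chose them, at 0.587, 0.350 and 0.121 percentage points, and was not seen in 2 of 3 pairs that had no part in the choice.

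**Figure D2:**
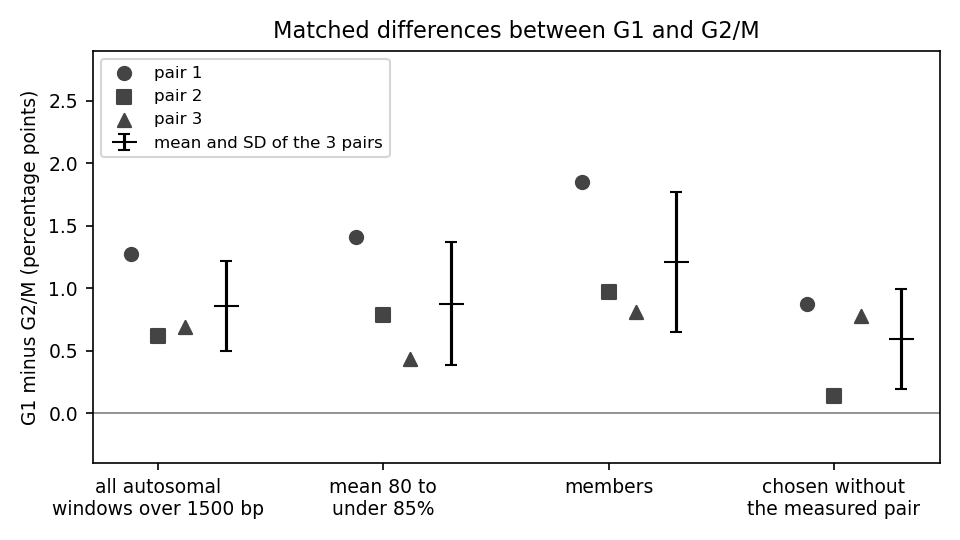
Matched difference between G1 and G2/M (percentage points, vertical axis) in replicate pairs 1 (circle), 2 (square) and 3 (triangle), with the mean and SD of the 3 pairs as bars, for 4 sets of windows (horizontal axis). All 12 differences lie above 0, and those of windows chosen without the measured pair have a mean of 0.597 against 1.21 for the 1005 highly methylated windows (members).

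Few single windows separated the phases. All 3 matched differences were above 0 in 163 of the 1005 windows (16.2%), where 16.3% of all 359192 windows had that pattern, and all 3 were below 0 in 81 (8.06%), where 9.74% of all windows did. The phases did not overlap, with G1 above, in 56 windows (5.57%), compared with 4.12% of all windows, and with G1 below in 20 (1.99%), compared with 1.98%. These shares were near the background. In the limma fit across all windows, none of the 1005 passed an adjusted p of 0.05 (Benjamini-Hochberg), and 0.00223% of all windows, 8 in number, did. At an unadjusted p under 0.05 limma called 3 of them (0.299%), where 2.11% of all windows were called. G1 was the higher phase in 2 of them, a direction called in 1.36% of all windows, and G2/M in 1, a direction called in 0.75%. With the replicate number in the fit limma again called 3, where 4.83% of all windows were called. Without the trend of variance on level the count was 69 (6.87%) against 2.16% of all windows, again with 0 after adjustment. Whether few or many of these windows were called before adjustment thus depended on how the variance of highly methylated windows was estimated. With the trend, the smallest unadjusted limma p among the 1005 was 0.0284. The window with the highest mean had an SE of 13.9 on the log2 scale of the fit. The lack of calls therefore does not show that the phases were equal in these windows.

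The window with the largest G1 excess among those with 3 matched differences of 1 sign lies in Pigk, which encodes the catalytic subunit of the GPI transamidase. At chr3:152803409-152811597 it measured 93.8%, 90.8% and 96.9% in the G1 libraries against 81.0%, 75.5% and 72.6% in the G2/M libraries. The phases did not overlap, and their means differed by 17.5 percentage points. On the scale of log2 methylated over unmethylated percentage the limma difference was 2.16 ± 0.826 (SE), with an unadjusted p of 0.0284 and an adjusted p of 1. This window was 75.9% soft-masked repeat. The next largest, outside genes at chr8:10824797-10828402, had 88.0%, 97.7% and 96% in the G1 libraries against 84.3%, 66.5% and 82.8% in the G2/M libraries, again without overlap and with an adjusted p of 1 in limma.

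The opposite direction was seen outside genes at chr9:7607282-7612659, 18261 bp from Mmp20, the gene of the enamel protease enamelysin. Methylation there was 80.1%, 74.3% and 78.7% in the G1 libraries against 92.7%, 95.4% and 90.3% in the G2/M libraries. All G2/M libraries were higher, by 15.1 percentage points on average, with an unadjusted p of 0.0366 and an adjusted p of 1 in limma. At chr12:43672169-43674646, a window made up of repeats over 100% of its bases, the values were 53.4%, 81.0% and 92.7% in the G1 libraries against 98.6%, 88.6% and 96.2% in the G2/M libraries. This was also the window with the widest range over libraries, 45.2 percentage points, and the phases overlapped. The next widest range, 42.3 percentage points, belonged to a window at chr15:49172569-49176297 that was 98.9% repeat and had 57.7% in G2/M replicate 2 and 100% in G2/M replicate 3.

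The highest mean of all was found outside genes at chr9:25858836-25862325, a window with 116 CpGs in 3490 bp of which 74.2% was repeat. It had 88.0%, 91.7% and 95.1% in the G1 libraries against 100%, 95.6% and 100% in the G2/M libraries. All G2/M libraries were higher, and limma gave an adjusted p of 1. A window at chr7:121850068-121856160, 11924 bp from Scnn1b, a subunit gene of the epithelial sodium channel, was 88.3% repeat and had 97.1%, 81.0% and 96.7% in the G1 libraries against 91.5%, 87.8% and 96.2% in the G2/M libraries. Its phases overlapped.

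The windows were short and rich in CpGs. Median length was 3622 bp (interquartile range 2840 to 4621 bp) against 5764 bp in the background windows, and 80.2% were shorter than 5 kb against 39.0%. CpG density had a median of 16.2 per kb against 9.21 per kb, and GC content 45.7% against 43.1%. The next lower band lay between the set and the background in each of these. Its medians were 4245 bp, 12.4 CpGs per kb and 45.0% GC, and 69.2% of its windows were shorter than 5 kb. The share of windows that were highly methylated fell from 1.13% at lengths of 2000 to 3000 bp to 0.0253% at 10000 to 20000 bp. The median methylation of all windows did not fall in this way. It was 59.8% at 2000 to 3000 bp, 71.1% at 5000 to 6000 bp and 64.3% at 10000 to 20000 bp. The SD over windows was 22.6 percentage points at 2000 to 3000 bp and 6.99 at 10000 to 20000 bp. The longest was a 23487 bp window in Cd28, the gene of a T-cell costimulatory receptor, which held 274 CpGs and was 56.5% repeat. It had 87.1%, 88.3% and 93.0% in the G1 libraries against 85.3%, 76.5% and 87.5% in the G2/M libraries, with overlap between the phases. The next longest, 16184 bp in Cd101, which encodes an immunoglobulin-family receptor of leukocytes, had 92.0%, 97.2% and 86.6% in the G1 libraries against 85%, 82.9% and 90% in the G2/M libraries. The phases overlapped in this window as well. By the genome sequence the highly methylated windows held a median of 52 CpGs against 51 in background windows, but 32.1% of them held more than 55 against 15.5%, and 9.85% held more than 100 against 2.18%. How the table's windows were placed where they hold so many CpGs is not given in the sources used here. Length and CpG density are tied to each other and to the length limit of the rule, and no test was made.

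Repeat content divided the set. Soft-masked bases, which mark repeats in the RefSeq genome, made up 50% or more of 392 of the 1005 windows (39.0%), against 11.3% of background windows, and 75% or more of 24.1% against 2.9%. The share of windows that were highly methylated was lowest at 20% to 30% repeat, 0.140%, and rose to 3.43% at 90% to 100% repeat. It was 0.506% in windows with under 10% repeat, so both ends of the range exceeded the middle. The median methylation of all windows moved less, from 66.1% at 40% to 50% repeat to 72.7% at 90% to 100%. Reads of low mapping quality had been discarded by the authors, so repeat copies were measured from the reads that could be placed. The part of read placement in these levels was not tested.

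**Figure D3:**
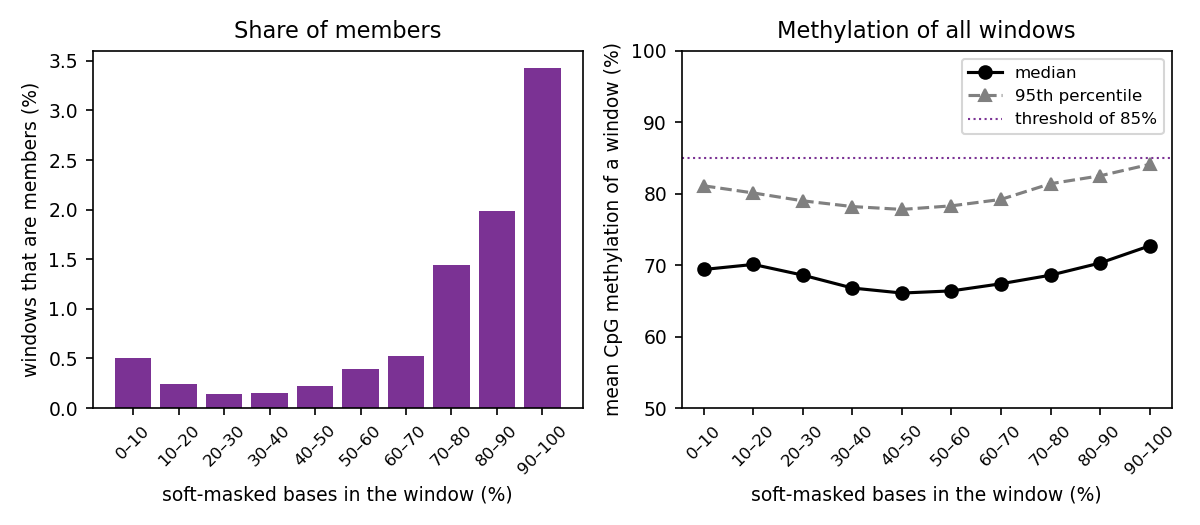
Left, share of autosomal windows over 1500 bp that were highly methylated (%, vertical axis) by the percentage of soft-masked bases in the window (horizontal axis), and right, the median (circles) and 95th percentile (triangles) of mean methylation of all these windows in the same bins, with the threshold of 85% as a dotted line. The share is 0.140% at 20 to 30% repeat and 3.43% at 90 to 100%, where the 95th percentile of all windows, 84.1%, nearly meets the threshold.

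Among repeat-rich windows, the share that was highly methylated rose with CpG density. Among windows with under 50% repeat it also rose, up to 30 CpGs per kb. There it was 0.0424% at 5 to 10 CpGs per kb, 0.293% at 10 to 15, 0.584% at 15 to 20 and 0.8% at 20 to 30. Above 30 CpGs per kb it was 0.174%. Among the 1357 windows with 50% or more repeat and 20 or more CpGs per kb, 194 (14.3%) were highly methylated. Among the 28660 repeat-rich windows with under 10 CpGs per kb only 22 (0.0768%) were. Between these, the share was 1.24% at 10 to 15 CpGs per kb (78 windows) and 4.93% at 15 to 20 (98 windows). In the repeat-rich class with 20 or more CpGs per kb the median over windows was 79.8%, 74.2% and 82.8% in the G1 libraries against 78.3%, 74.7% and 82.6% in the G2/M libraries. Windows with as many CpGs per kb but under 50% repeat had medians of 40.1%, 39.4% and 46.5% in the G1 libraries against 39.5%, 39.7% and 46.5% in the G2/M libraries, and 109 of 15454 (0.705%) were highly methylated. At 20 or more CpGs per kb the repeat-rich class was thus higher in every library, with no overlap between the 6 values of each class. The 2 classes also differed in place: 27.3% of the repeat-rich class and 76.3% of the other lay in genes. Below 50% methylation lay 8.47% of the repeat-rich class and 58.1% of the other. Repeat content and place in genes thus cannot be told apart here, and the cause of the gap was not tested. These classes were drawn after the values had been seen.

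Many of the repeat-rich windows shared a stretch of sequence with another of the set. By alignment of at least 1000 bp at 90% identity or more, 377 of the 1005 windows (37.5%) matched another of the set, and among those with 50% or more repeat 82.9% did, against 8.48% of the others. The matched windows formed 20 groups, the largest with 247 windows on 19 chromosomes. A window had at most 133 such matches, so not all windows of that group matched one another. In this group the mean over windows was 88.3%, 83.7% and 90.6% in the G1 libraries against 86.6%, 83.1% and 88.8% in the G2/M libraries. A second group of 27 windows, with a median of 99.2% repeat and 27.3 CpGs per kb, had 87.2%, 86.1% and 92.5% in the G1 libraries against 85.8%, 82.3% and 89.2% in the G2/M libraries. Such matches were as common below the threshold. Of highly methylated windows with 75% or more repeat, 93.0% matched another of the set. Of 9571 windows below the threshold with as much repeat, 92.9% matched a highly methylated window. Windows of 1 group are linked by shared sequence and are not independent measurements. The class of each repeat was not analysed here.

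The mean G1 excess was 1.20 percentage points in windows with under 50% repeat and 1.23 in those with 50% or more. Background windows of the same classes had 0.804 and 1.28, so windows with more repeat did not exceed those of their class. The 613 windows with under 50% repeat had matched differences of 2.0, 1.17 and 0.428 percentage points, and the 392 with 50% or more had 1.63, 0.659 and 1.40. In the libraries that had not chosen them, repeat-rich windows were 14.7 to 17.3 percentage points and the others 16.0 to 18.1 percentage points above the background windows of their own class.

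In genes, 515 of the 1005 windows (51.2%, exact 95% binomial interval 48.1% to 54.4%) had their centre, compared with 54.7% of background windows. The interval treats windows as independent, although 377 matched another by sequence and 109 lay in runs of adjacent windows. It is therefore too narrow to serve as a test. At a threshold of 80% the share in genes was above the background, at 58.9%. Split by repeat content, the share in genes was 64.6% below 50% repeat, against 58.2% of background windows of that class, and 30.4% at 50% or more, against 26.9%. Near the start of protein-coding genes they were rare: 9 windows (0.896%) lay within 2 kb of a start, compared with 3.67% of background windows. The next lower band had a like share, 0.829%. Along protein-coding genes they became more frequent toward the end. The first 10% of gene length held 5.56% of the 450 windows in coding genes and the last 10% held 17.1%, whereas each such bin held between 9.67% and 10.8% of all windows in coding genes. The median methylation of all windows rose from 61.0% in the first bin to 66.7% in the next and lay between 68.0% and 70.4% in the rest. The share of windows that were highly methylated was 0.156% in the first bin, lay between 0.229% and 0.286% from 20% to 70% of gene length, and was 0.439% in the last bin.

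**Figure D4:**
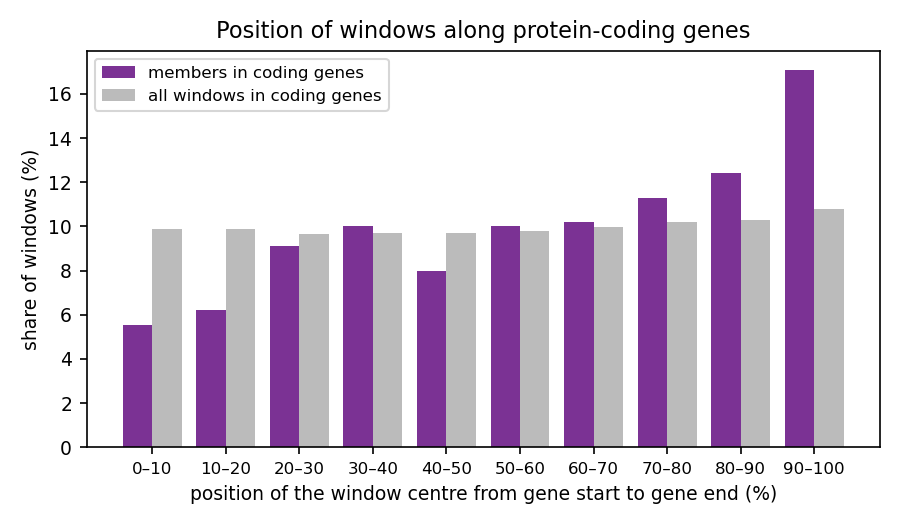
Share of windows (%, vertical axis) centred in each 10% bin of a protein-coding gene from its start to its end (horizontal axis), for the 450 highly methylated windows in coding genes (purple, members) and for all autosomal windows over 1500 bp in coding genes (grey). The purple bars go from 5.56% in the first bin to 17.1% in the last, and the grey bars stay between 9.67% and 10.8%.

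Coding sequence made up 50% or more of the bases in 833 background windows, and 18 of these (2.16%) were highly methylated, against 0.297% of all. Of the 18, 7 lie in Ttn. The other 11 came from 11 genes, among them Map1b, which encodes a microtubule-associated protein of neurons, Golgb1, which encodes the Golgi protein giantin, Wfs1, which encodes a membrane protein of the endoplasmic reticulum, Sorcs2, which encodes a sorting receptor, and Hivep2. Outside Ttn the share was 1.37% of 801 windows. The coding class was short, with a median length of 2208 bp, and of all background windows of 2000 to 3000 bp 1.13% were highly methylated. The part of length in the coding share was not tested. The median of the coding class was not high: it was 65.3%, 62.2% and 73.1% in the G1 libraries against 65.1%, 62.2% and 72.1% in the G2/M libraries, and 26.7% of its windows lay below 50%.

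Ttn held 7 of the highly methylated windows among its 76 windows, and the mean over the gene was 77.6%. Its 17106 bp exon, chr2:76736064-76753169, holds 7 whole windows, of which 4 were highly methylated, and their means ran from 82.8% to 90%. Averaged over the exon, methylation was 87.4%, 79.8% and 89.7% in the G1 libraries against 88.1%, 84.3% and 88.8% in the G2/M libraries. G2/M was higher in 2 of 3 pairs, by 0.69 and 4.46 percentage points, and lower in the other by 0.9, and the phases overlapped. The other 69 windows of the gene had a mean of 76.7%. Gm13938, a noncoding gene antisense to Ttn, lies within Ttn, and the 5 highly methylated windows among its 23 are counted among the 7 of Ttn. The exon was singled out after the values had been seen.

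D10Wsu102e, a protein-coding gene of chromosome 10 at chr10:83360221-83488505, held 11 highly methylated windows among 30 (36.7%), the most of any gene in number and in share among genes with 10 or more windows. Its other 19 windows had a mean of 79.2%. The highest, chr10:83411936-83414168, had 95.8%, 93.7% and 95% in the G1 libraries against 97.8%, 88.7% and 85.5% in the G2/M libraries, with overlap between the phases. Next to each other in this gene lie 4 highly methylated windows, at chr10:83422910-83436756, the run with the most windows. The mean over that run was 84.2%, 86.1% and 89.3% in the G1 libraries against 90.5%, 84.5% and 90.9% in the G2/M libraries, so the phases overlapped here too. The annotation gives the gene an untranslated region of 122586 bp, within which 10 of the 11 windows lie. Over the gene's 30 windows the matched differences were -1.63, -1.70 and 0.407 percentage points.

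**Figure D5:**
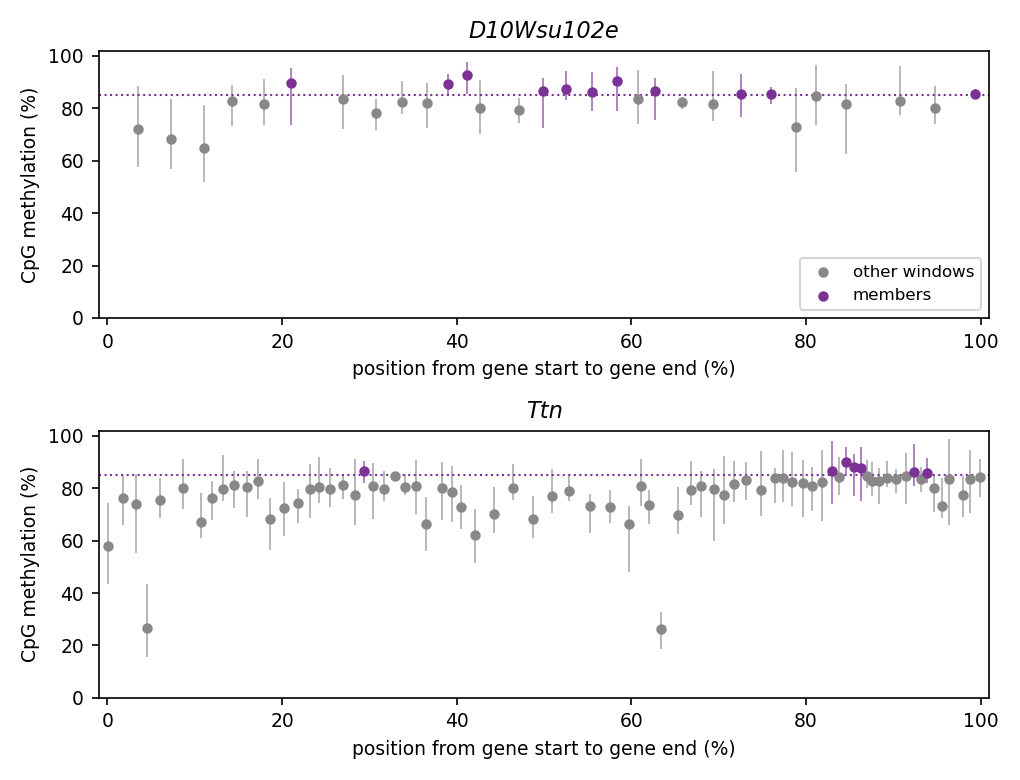
Mean CpG methylation over the 6 libraries (%, vertical axis; points) with the lowest and highest library (vertical lines) of each window along D10Wsu102e (top) and Ttn (bottom), placed by position from gene start to gene end (%, horizontal axis), with highly methylated windows (members) in purple and the threshold of 85% dotted. In D10Wsu102e 11 of 30 windows are purple, and in Ttn 7 of 76 are, 6 of them in the last 20% of the gene.

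Most genes with a highly methylated window had just 1. The 515 windows in genes fell in 456 genes, 379 of them protein-coding, out of 26705 genes with a background window, and 58 genes had 2 or more. After D10Wsu102e and Ttn the highest numbers were in long genes: 6 of 157 windows in Grip1, a scaffold of glutamate receptors, 6 of 225 in Cdh13, an atypical cadherin, 5 of 115 in Tiam1, an activator of the GTPase Rac, and 5 of 249 in Wwox, an oxidoreductase with WW domains. Map3k5, a stress-activated kinase, had 4 of 46, Prkce, a protein kinase C, 4 of 128, and Cacna1c, a calcium channel subunit, 4 of 131. The mean over each of these 7 genes lay between 67.6% in Tiam1 and 76.1% in Prkce, below the 85% to 89.6% of their highly methylated windows. By share, Aldh1l2, a mitochondrial folate enzyme, and Sult2a4, a sulfotransferase, had 2 of 10 windows each and Dcp1b, an mRNA decapping factor, 2 of 12. Because these genes overlap others, 1 window of Aldh1l2 is also counted in D10Wsu102e and 1 of Dcp1b in Cacna1c.

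Over all windows centred in genes 0.279% were highly methylated, and lists of genes by tissue or family were set beside that share. In genes of muscle and heart 12 of 617 windows (1.94%) were highly methylated, 7 of them in Ttn, 4 in Cacna1c and 1 in Nebl, which encodes the thin-filament protein nebulette, so 3 of 15 genes had any. Of 383 windows in broadly transcribed housekeeping genes 2 (0.522%) were highly methylated, both in Polr1a, which encodes the largest subunit of RNA polymerase I. No window was among them of 120 in pluripotency genes, 315 in genes of the methylation machinery, 3189 in long genes of neurons and 117 in genes of liver. The upper limits of the exact 95% binomial intervals were 3.03%, 1.16%, 0.116% and 3.1% in this order. Only the limit for long genes of neurons lay below the 0.279% of all windows in genes. The intervals treat windows as independent. Pluripotency genes had a median of 33.1%, with 31.4%, 28.6% and 37.3% in the G1 libraries against 28.9%, 27.9% and 34.2% in the G2/M libraries. By family there were 8 of 2039 windows in genes with symbols starting with Zfp (zinc-finger proteins), 11 of 3457 with Slc (solute carriers), 2 of 602 with Olfr (olfactory receptors), and none of 400 with Vmn (vomeronasal receptors), 188 with Psm (proteasome) or 218 with Mrp (mitochondrial ribosome). The upper limits for Vmn, Psm and Mrp were 0.918%, 1.94% and 1.68%, all above 0.279%.

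Highly methylated windows were scattered over all 19 autosomes. Chromosome 10 had the highest share, 92 of 19278 windows (0.477%), of which 11 lie in D10Wsu102e, and chromosome 4 the lowest, 44 of 19991 (0.22%). The last 10% of chromosome length held 17.8% of them and 12.2% of background windows, and the first 10% held 11.1% and 6.78%. The last 5 Mb of each autosome held 4.18% of them and 4.06% of background windows. In runs of adjacent windows lay 109 of the 1005 (10.8%), as 42 runs of 2, 7 runs of 3 and 1 run of 4. The longest run of 3 covers chr10:99332072-99349328 around B530045E10Rik, with 87.2%, 88.1% and 85.9% in the G1 libraries against 87.0%, 82.7% and 94.5% in the G2/M libraries, so the phases overlapped. Of windows directly before or after a highly methylated one, 6.19% and 6.22% were themselves highly methylated, compared with 0.297% of background windows. The neighbours that were not had a mean of 75.1% on either side, and at 10 windows' distance the mean was 68.4% and 69.1%. In the next lower band the neighbours had 74.0% and 73.9%, and 69.1% at 10 windows' distance on either side, a like profile. Of the highly methylated windows, 896 of the 1005 had no highly methylated window next to them.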

How the data were processed

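EM-seq libraries of sorted G1 and G2/M cells (3 each) were analysed. The authors trimmed reads with Trim Galore 0.6.4, aligned them to GRCm38/mm10 with Bismark 0.22.1 and Bowtie2, and removed PCR duplicates, poorly placed reads and reads from regions of outlying depth. The deposited values are CpG methylation in percent, per 100-CpG window and library, for windows with at least 1 in 5 CpGs observed in all datasets. No scaling between libraries is stated and no coverage is given, so depth is unknown, no interval was computed for a window, and neither the logistic regression of the study's methods nor a coverage minimum could be run. The table held 0 columns of other series.

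Windows were annotated by their centre with GENCODE vM21 and by the RefSeq GRCm38 genome, whose soft-masked bases were taken as repeats. Windows were aligned with blastn 2.17.0 (at least 1000 bp and 90% identity). A limma fit (version 3.58.1, R 4.3.3; lmFit, eBayes with a trend) covered all 359192 windows on log2((percent + 1)/(100 - percent + 1)), with Benjamini-Hochberg adjustment and a threshold of 0.05; the step was tested on simulated data. Python 3.11.15, numpy 2.4.6, pandas 2.3.3, scipy 1.17.1 and matplotlib 3.10.9 were used.

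G1 and G2/M libraries of equal number were taken as matched, since the numbers come from the labels and the study calls its replicates matched. Their deviations from the group means correlated at 0.0274 to 0.0549 across windows, and those of other pairs at -0.0299 to -0.00144. The windows and gene lists were chosen with earlier results of these data known. Windows were named by rule: the 5 highest means, the 2 largest and 2 lowest phase differences with 3 matched differences of 1 sign, the smallest limma p in each direction, the 2 longest, the 2 widest ranges, the 2 longest runs, and those nearest the threshold. Genes were named as the 10 with the most highly methylated windows, the 5 with the highest share among genes with 10 or more windows, and the listed genes with the most. Further windows and genes with coding sequence, the repeat and density classes and the Ttn exon were chosen after their values were seen. Alternatives were other thresholds, the median, no length limit, centring, weighting by length, other definitions of gene overlap and adjacency, other limma settings, and leaving out each library or pair in turn. Replication timing and the conversion controls were not analysed here.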

Additional observations from a re-analysis of the deposited data

How the results depend on the processing

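The number of highly methylated windows was 13544 at a threshold of 80%, 30 at 90% and 1819 by the median of the 6 libraries, and 756 to 1890 when a library was left out, over 1.5 times the reported number when it was G1 replicate 2 (1748) or G2/M replicate 2 (1890). The G1 minus G2/M difference of 1.21 percentage points was 0.175 with libraries centred and 0.597 with each pair measured on windows chosen without it, an alternative chosen after seeing the data. Leaving out 1 library gave -0.38 to 2.95, and below 0 without G1 replicate 3 (-0.33) or G2/M replicate 2 (-0.38). A replicate block leaves the difference at 1.21 ± 0.563 (SD, 3 pairs) by construction, since every replicate has both phases. With that block limma called 3 windows at an unadjusted p under 0.05, where it called 4.83% of all windows. The unadjusted limma count of 3 was 10 on the percent scale (0.995% against 2.21% of all windows), 69 without a trend (6.87% against 2.16%), 7 with libraries centred (0.697% against 4.9%), 13 over windows from 10% to 90% (1.33% against 2.3%), and 1 to 5 without a library (background 1.49% to 3.76%); the adjusted count was 0 in all 12 alternatives. The share in genes, 51.2%, was below the 54.7% of background windows; it was above them at a threshold of 80% (58.9%), and below at 90% (36.7%), by any overlap (56.8% against 62.4%) and for protein-coding genes (44.8% against 48.0%). Median length was 4198 bp at 80%, 3020 bp at 90% and 3527 to 3760 bp without a library. The share next to another highly methylated window, 10.8%, was 32.2% at 80% and 0% at 90%. The level in libraries not used for the choice, 82.1%, was 80.2% to 81.4% under its 3 alternatives. The cause of these changes was not tested. Depth per window is unknown, and a coverage minimum could not be tried.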
